A study of Mus musculus with 6 samples.

Results

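The expression of 10 stathmin and neuronal genes was examined in brain astrocytes from mice that received quinpirole, an agonist of the dopamine D2 receptor DRD2, or a mock treatment. The genes were *Stmn1*, *Stmn2*, *Stmn3*, *Stmn4*, *Tubb3*, *Dcx*, *Map2*, *Rbfox3*, *Snap25* and *Syt1*. They were taken by symbol, from a list chosen with earlier results of these data known. Of the 17193 genes in the tables, 10 are these genes, so that none of the symbols lacked a row. All mice were wild type, of the C57BL/6 strain and 3 months old, and each group comprised 3 libraries. The study's methods describe digestion of adult brain, removal of myelin debris and selection of ACSA-2+ cells with magnetic microbeads. The dose and the duration of quinpirole for these mice, their sex and whether animals were pooled are not given in the sources used here. Since nothing states that each library came from a separate mouse, the p-values measure the spread between these libraries only.

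Stathmins bind tubulin dimers and promote the disassembly of microtubules. *Stmn1* encodes the cytosolic founding member, found in developing neurons and in dividing cells, whereas *Stmn2*, *Stmn3* and *Stmn4* encode membrane-anchored members known chiefly from neurons. *Dcx* and *Tubb3* are widely used markers of young neurons, *Map2* and *Rbfox3* of maturing and mature neurons, and *Snap25* and *Syt1* encode proteins of synaptic vesicle release. For the comparison, *Stmn1*, *Stmn2*, *Tubb3* and *Dcx* were counted as immature neuron genes, *Map2*, *Rbfox3*, *Snap25* and *Syt1* as mature neuron genes, and *Stmn3* and *Stmn4* as neither.

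Levels are given as deposited, in FPKM, a count of sequenced fragments scaled to transcript length and to the depth of the library. The steps between the lowest values placed that depth at 22300000 to 27600000 fragments. Genes with a mean of at least 1 FPKM were compared on the scale of log2(FPKM + 1) by limma, with p adjusted by Benjamini-Hochberg over all 12255 genes tested and a threshold of 0.05. In this fit, 704 genes (5.74%) were higher and 635 (5.18%) were lower after quinpirole, compared with 283 higher and 500 lower after quantile normalization.

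Of the 10 genes, 5 were well detected and 5 had a mean under 1 FPKM. The means over the 6 libraries were, in order, 172.0 FPKM for *Stmn1*, 59.1 for *Stmn2*, 24.4 for *Map2*, 19.5 for *Tubb3* and 7.65 for *Stmn3*. The low genes were ordered 0.622 FPKM for *Syt1*, 0.331 for *Stmn4*, 0.0461 for *Snap25*, 0.0357 for *Rbfox3* and 0.0328 for *Dcx*. The ranges of neighbours in this order did not overlap for *Stmn1* and *Stmn2*, for *Stmn2* and *Map2*, or for *Tubb3* and *Stmn3*. Nor did they overlap for *Stmn3* and *Syt1*, for *Syt1* and *Stmn4*, or for *Stmn4* and *Snap25*. *Map2* and *Tubb3* met at the edge of their ranges (22.31 to 25.8 and 16.6 to 22.34 FPKM), although *Map2* was the higher of the pair in each library. *Snap25*, *Rbfox3* and *Dcx* could not be ordered, because their ranges overlapped. *Stmn1* was more abundant than 97.9% of all genes in the tables, while 10.2% of genes were below *Dcx* and 10.6% were below *Rbfox3*.

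**Figure D1:**
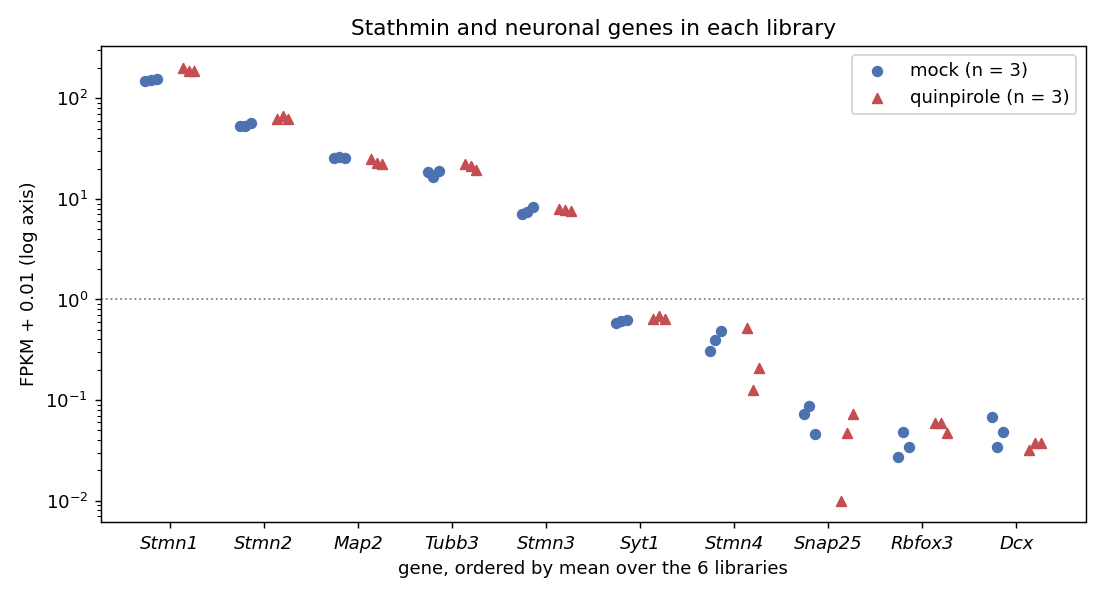
FPKM + 0.01 of the 10 stathmin and neuronal genes on a log axis, with 1 point per library, circles for mock (n = 3) and triangles for quinpirole (n = 3); the dotted line marks 1 FPKM. *Stmn1*, *Stmn2*, *Map2*, *Tubb3* and *Stmn3* lie above the line in all 6 libraries, and *Snap25*, *Rbfox3* and *Dcx* lie under 0.1 FPKM.

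*Dcx*, *Rbfox3* and *Snap25* were close to 0, while *Stmn1*, *Stmn2* and *Tubb3*, also used as neuronal genes, were abundant. As these are bulk libraries, fewer cells of a type and less RNA per cell cannot be told apart. *Dcx* (chromosome X, 143855842 to 143933311, minus strand, GRCm38) encodes doublecortin, the microtubule-binding protein of migrating neuroblasts. It had 0.0582, 0.0241 and 0.0383 FPKM in mock libraries 1 to 3 and 0.0215, 0.0274 and 0.0274 FPKM in quinpirole libraries 1 to 3, which corresponds to an estimated 5 to 14 fragments per library. *Rbfox3* (chromosome 11, 118489762 to 118911597, minus strand) encodes NeuN, a splicing regulator of postmitotic neurons. Its values of 0.0172, 0.0378 and 0.0241 FPKM after mock and 0.0485, 0.0495 and 0.0369 FPKM after quinpirole rest on an estimated 1 to 4 fragments. The groups overlapped for both genes, and no difference was detectable at this depth.

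*Snap25* (chromosome 2, 136713453 to 136782428, plus strand), the gene of a membrane SNARE protein needed for exocytosis, had 0.0625, 0.0773 and 0.0364 FPKM after mock. It was listed at 0 in quinpirole library 1, where 3 fragments would have given 0.0229 FPKM, and had 0.0373 and 0.0633 FPKM in quinpirole libraries 2 and 3. *Syt1* (chromosome 10, 108497650 to 109010982, minus strand) encodes the calcium sensor of synaptic vesicles. It was the best detected of the 4 mature neuron genes after *Map2*, with 0.580, 0.598 and 0.610 FPKM after mock and 0.634, 0.675 and 0.636 FPKM after quinpirole, or an estimated 68 to 83 fragments. All quinpirole libraries lay above all mock libraries for *Syt1*, a separation seen in either direction for 29.4% of the genes in the tables. Because *Syt1* was under the filter, it was tested only in the fit without a filter, which gave 0.047 as log2 fold change, with a standard error of 0.034 (limma adjusted p = 0.469). In the same fit, the adjusted p from limma was 0.619 for *Dcx*, 0.494 for *Rbfox3* and 0.543 for *Snap25*.

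*Stmn1* rose after quinpirole. On chromosome 4 of GRCm38 (134468320 to 134473843, plus strand), it had 149.7, 152.3 and 155.6 FPKM in mock libraries 1 to 3 and 202.3, 187.1 and 185.1 FPKM in quinpirole libraries 1 to 3. The lowest quinpirole library was thus above the highest mock library. The mean went from 152.5 ± 2.97 FPKM (SD, n = 3) to 191.5 ± 9.39 FPKM (SD, n = 3), a ratio of 1.26. On the log2 scale this was a change of 0.33 with a standard error of 0.043 (95% interval 0.22 to 0.43, limma adjusted p = 0.0225). The direction held when each library was left out, with log2 fold changes of 0.29 to 0.35, but the call changed with the library omitted. It passed the threshold without mock library 3 and without quinpirole library 3, and the adjusted p from limma was 0.0721 without mock library 1, 0.0906 without mock library 2, 0.0546 without quinpirole library 1 and 0.0593 without quinpirole library 2. Over all genes tested, 6, 3, 11 and 25 passed in these last fits, in the same order, against 1339 with all libraries. Of the longest *Stmn1* transcript, 36.5% of all words of 50 bases also occur in transcripts of other genes, chiefly the predicted gene *Gm11223*, so part of its FPKM could depend on how the authors' counting placed such reads.

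*Stmn2*, which encodes a stathmin of growth cones and regenerating axons, rose as well. Located on chromosome 3 (8509360 to 8561606, plus strand), it had 53.7, 53.3 and 56.5 FPKM after mock and 61.9, 67.2 and 62.2 FPKM after quinpirole. The groups did not overlap. From 54.5 ± 1.73 to 63.8 ± 2.97 FPKM (SD, n = 3 per group), the change on the log2 scale was 0.22 with a standard error of 0.046 (95% interval 0.12 to 0.33, limma adjusted p = 0.0322). The call was kept without mock library 3 (adjusted p = 0.0381 from limma). Without mock libraries 1 and 2 and quinpirole libraries 1, 2 and 3 in turn, the adjusted p from limma was 0.0965, 0.113, 0.065, 0.0875 and 0.0574, with log2 fold changes between 0.19 and 0.25 over all 6 omissions. Over all genes tested, 6, 3, 11, 25 and 214 passed in the fits with these adjusted p, in the same order. With all libraries and eBayes without trend, *Stmn2* did not pass (limma adjusted p = 0.0541).

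The other stathmins did not pass the threshold. *Stmn3* (chromosome 2, 181306459 to 181314500, minus strand) had 7.03, 7.44 and 8.30 FPKM after mock and 7.88, 7.71 and 7.54 FPKM after quinpirole. Its quinpirole values lay inside the mock range, and the log2 fold change was 0.023 (95% interval -0.13 to 0.18, adjusted p = 0.841 from limma). *Stmn4* (chromosome 14, 66344296 to 66361680, plus strand) was weakly expressed, with 0.299, 0.384 and 0.475 FPKM after mock and 0.512, 0.116 and 0.199 FPKM after quinpirole. Quinpirole library 1 held its highest value and quinpirole library 2 its lowest, on an estimated 4 to 19 fragments, and the adjusted p without a filter was 0.55 from limma. Within a library, the ratio of *Stmn1* to *Stmn3* was 18.7 to 21.3 after mock and 24.3 to 25.7 after quinpirole, whereas the ratio of *Stmn1* to *Stmn2* was 2.76 to 2.86 and 2.79 to 3.27, ranges that overlapped.

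**Figure D2:**
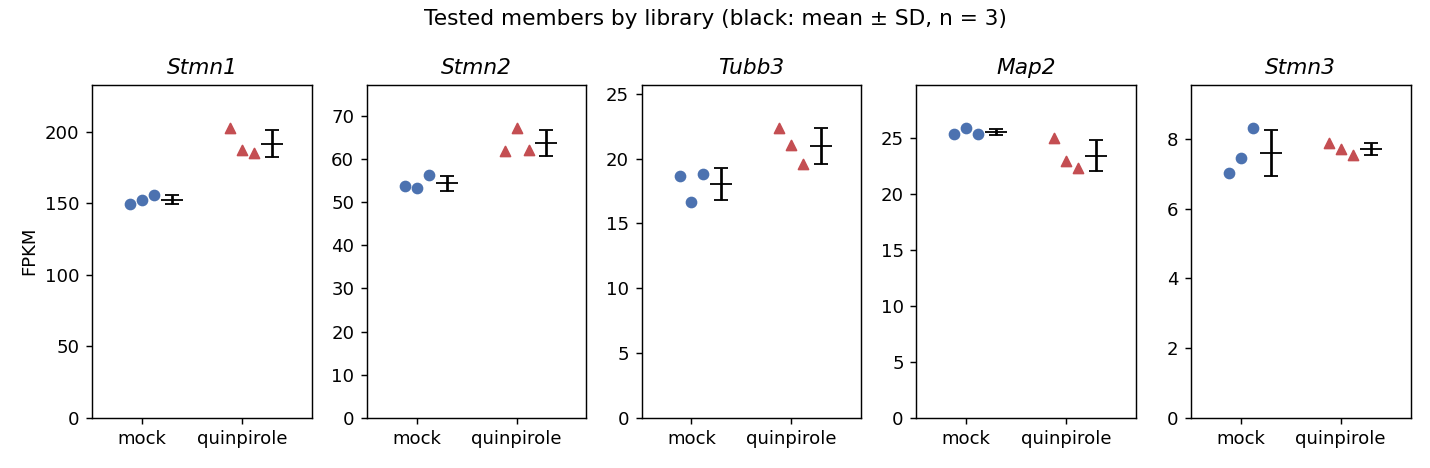
FPKM of the 5 genes that passed the filter, in each mock library (circles, n = 3) and quinpirole library (triangles, n = 3), with black bars for the mean ± SD and axes that start at 0. The groups are apart for *Stmn1*, *Stmn2*, *Tubb3* and *Map2*, of which *Map2* is lower after quinpirole, and they overlap for *Stmn3*.

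*Tubb3* and *Map2* did not pass the threshold and had log2 fold changes of opposite sign. *Tubb3* (chromosome 8, 123411424 to 123422015, plus strand), the gene of the class III beta-tubulin of neurons, had 18.7, 16.6 and 18.8 FPKM after mock and 22.34, 21.0 and 19.6 FPKM after quinpirole. The quinpirole libraries were all above the mock libraries, and the log2 fold change was 0.21 (95% interval 0.05 to 0.36, adjusted p = 0.0844 from limma). *Map2* (chromosome 1, 66175273 to 66442583, plus strand) encodes a microtubule-associated protein of dendrites. It had 25.3, 25.8 and 25.4 FPKM after mock and 25.0, 22.9 and 22.31 FPKM after quinpirole. All quinpirole libraries were below the mock libraries, with quinpirole library 1 close to them. Its log2 fold change was -0.12 (95% interval -0.24 to -0.0049, adjusted p = 0.147 from limma). The ratio of *Tubb3* to *Map2* within a library was 0.738, 0.644 and 0.742 after mock and 0.895, 0.918 and 0.877 after quinpirole, so that the quinpirole libraries were all higher.

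The immature neuron genes were compared with the mature neuron genes through the members that could be tested. Of the 4 immature genes, 3 were tested, 2 passed the threshold as higher and none as lower, with a median log2 fold change of 0.22. Of the 4 mature genes, *Map2* alone was tested and did not pass, with -0.12. The median of all genes tested was 0.015, and 5.74% of them passed as higher. The difference of 0.34 between immature and mature genes was larger than the SD of 0.093 between libraries of a group, but it sets 3 genes against 1. Of the 5 tested genes, 3 had every quinpirole library above every mock library and 1 had every one below, against 20.0% and 16.9% of all genes tested (36.9% in either direction). The summed level of the immature genes was 222.1 to 230.9 FPKM after mock and 266.9 to 286.6 FPKM after quinpirole, most of it from *Stmn1* and *Stmn2*. That of the mature genes was 26.0 to 26.6 and 23.1 to 25.6 FPKM, most of it from *Map2*.

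Gene length moved with these values. The tested genes with an annotated exonic length were divided into 5 equal bins by that length. The shortest bin had a median of 0.12 on the log2 scale and 12.8% of its genes called higher, and the longest had a median of -0.11 and 1.19% called higher. *Stmn1*, *Tubb3* and *Stmn3* (1922, 1868 and 1136 bases) belonged to the shortest bin, *Stmn2* (5602 bases) to bin 4, with a median of -0.034, and *Map2* (16449 bases) to the longest. After each library was corrected for exonic length, *Stmn1* and *Stmn2* still passed, with log2 fold changes of 0.23 (adjusted p = 0.0453 from limma) and 0.24 (adjusted p = 0.0454 from limma), against 2.09% of all genes called higher in that fit. *Tubb3* was at 0.11 (adjusted p = 0.34 from limma), while *Map2* turned to 0.083 (adjusted p = 0.387) and *Stmn3* to -0.11 (adjusted p = 0.259, both from limma). The difference between immature and mature genes was then 0.15. With the length of the longest transcript in place of the exonic length, an alternative added after the data had been seen, neither stathmin passed (adjusted p = 0.0777 for *Stmn1* and 0.055 for *Stmn2* from limma), at log2 fold changes of 0.20 and 0.21. In that fit *Map2* kept its negative sign, at -0.0197 (adjusted p = 0.841 from limma). With exonic length and GC content corrected together, also added afterwards, *Stmn2* did not pass (adjusted p = 0.0735 from limma).

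**Figure D3:**
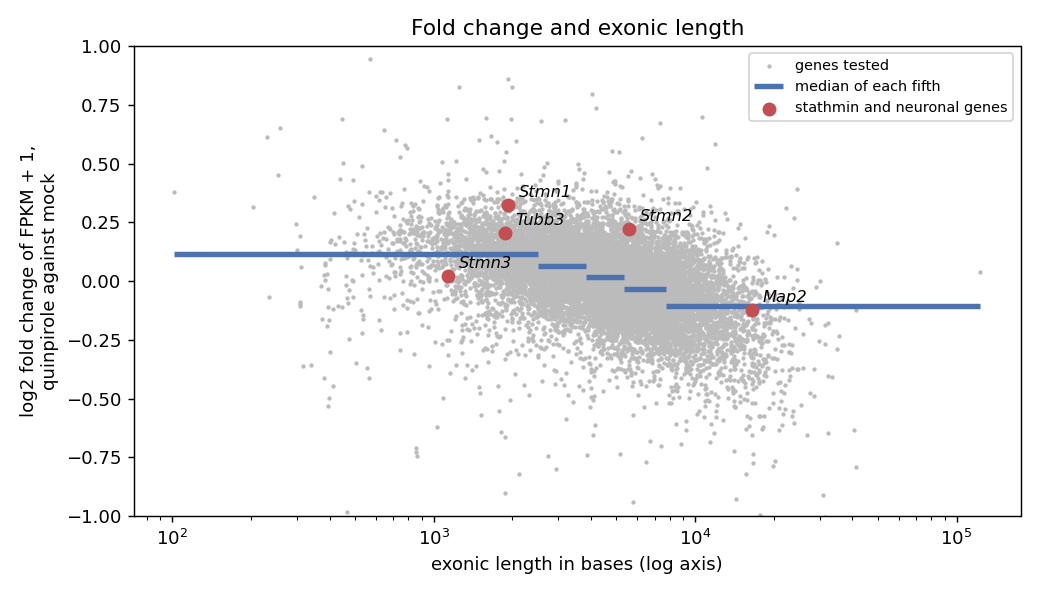
Log2 fold change of FPKM + 1 between quinpirole and mock against exonic length (log axis) for the tested genes (grey points), with the median of each of 5 length bins (blue) and the 5 tested stathmin and neuronal genes (red); 20 genes beyond ±1 are outside the plot. *Stmn2* lies above the median of its bin (-0.034), and *Map2* lies close to that of the longest genes (-0.11).

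**Figure D4:**
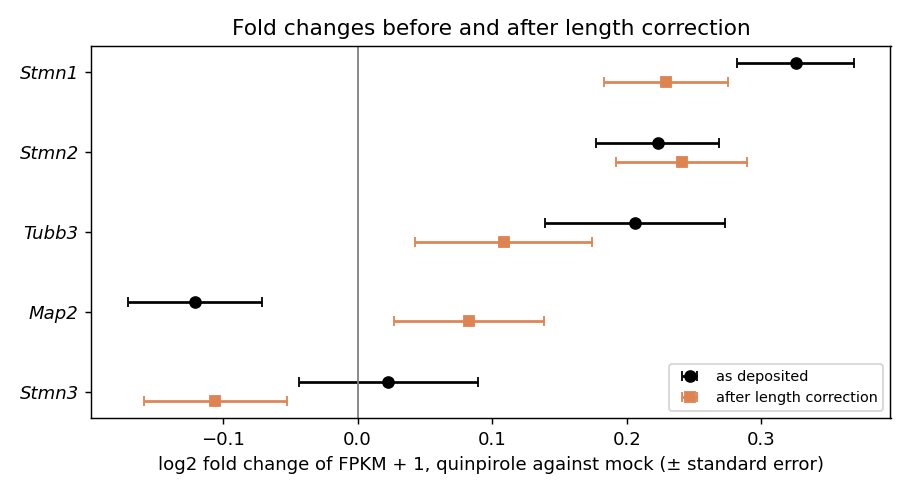
Log2 fold change of FPKM + 1 between quinpirole and mock for the 5 tested genes, as deposited (black circles) and after the correction for exonic length (orange squares), with bars for the standard error. *Stmn1* and *Stmn2* stay above 0.2 in both, whereas *Map2* and *Stmn3* change sign.

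A wider list held 20 other immature neuron genes, of which 19 had a row and 11 were tested. None passed the limma threshold as higher (3 at an unadjusted p under 0.05), 1 passed as lower and the median was -0.0031. Over all genes tested, 5.74% passed as higher and 5.18% as lower. The gene that fell was *Dpysl5*, which encodes a collapsin response mediator of axon growth, from 15.9 ± 0.138 to 13.4 ± 0.836 FPKM (SD, n = 3 per group), a change of -0.23 on the log2 scale (limma adjusted p = 0.0412). After the correction for exonic length it was at -0.18 and did not pass (limma adjusted p = 0.0717). The most abundant gene was *Tubb2b*, a beta-tubulin of the developing brain, with 440.1 to 475.5 FPKM and a change of 0.053 on the log2 scale (limma adjusted p = 0.4). *Neurod1*, *Dlx5* and *Elavl4*, transcription factors and an RNA-binding protein of young neurons, had means under 0.1 FPKM. In all, 8 of the 19 genes with a row had a mean under 1 FPKM, and the 11 tested had at least 1 FPKM.

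Among 24 other mature neuron genes, 13 were tested, 1 passed as higher and 2 as lower, with a median of -0.063. The shares over all genes tested were 5.74% and 5.18%. *Thy1*, a surface glycoprotein gene of neurons, rose from 36.4 ± 0.715 to 44.7 ± 2.19 FPKM (log2 fold change 0.29, adjusted p = 0.0236 from limma). *Vamp2*, the gene of a SNARE protein of synaptic vesicles, fell from 36.1 ± 0.938 to 32.3 ± 0.747 FPKM (log2 fold change -0.15, limma adjusted p = 0.049, SD over n = 3 per group). *Uchl1*, a ubiquitin hydrolase gene, was the most abundant at 259.7 to 284.2 FPKM. In contrast, *Slc17a6*, *Gad2*, *Slc32a1*, *Nefh* and *Grin2b* had means under 0.1 FPKM, and 11 of the 24 genes were under 1 FPKM. Those under 0.1 FPKM included some, but not all, of the listed genes of transmitter transport and synthesis that separate excitatory from inhibitory neurons.

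Stathmins act on tubulin, and 4 tubulin genes rose while the genes of 2 large microtubule-associated proteins fell. Of 18 genes of tubulins and microtubule-binding proteins, all tested, 4 passed as higher and 2 as lower, with a median of 0.0045. Over all genes tested, 5.74% passed as higher and 5.18% as lower. The 4 tubulin genes (1610 to 3327 bases) lay in the shortest bin and bin 2 by exonic length, where 12.8% and 8.67% passed as higher. The 2 that fell (12166 and 15846 bases) lay in the longest bin, where 16.2% passed as lower. *Tubb5* rose from 296.2 ± 4.76 to 342.9 ± 7.51 FPKM (log2 fold change 0.21, adjusted p = 0.0246 from limma), and *Tuba1b*, *Tubb2a* and *Tubb6* rose with log2 fold changes of 0.17, 0.16 and 0.18. *Map1b* fell from 19.9 ± 2.56 to 13.0 ± 1.24 FPKM (log2 fold change -0.58, adjusted p = 0.0251 from limma) and *Map1a* from 21.8 ± 1.01 to 14.8 ± 1.5 FPKM (log2 fold change -0.53, adjusted p = 0.0225 from limma). *Tuba1a*, the most abundant at 824.5 to 945.1 FPKM, differed by 0.13 on the log2 scale (limma adjusted p = 0.0678). After the correction for exonic length, *Tubb5* was the single tubulin gene still higher, and *Map1a* and *Map1b* were both still lower. The rise of the tubulin genes also depended on the scaling: after quantile normalization, *Tubb5*, *Tubb6*, *Tuba1b* and *Tubb2a* were at 0.077, 0.072, 0.030 and 0.0046 and none of the 4 passed (adjusted p from limma of 0.145 to 0.936), while *Map1a* and *Map1b* were at -0.54 and -0.58 and passed.

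*Stmn1* is also a gene of dividing cells, and genes of the cell cycle were detected in these libraries, which are labelled as astrocytes of adult mice. Beside them, the astrocyte genes *Slc1a2* and *Gjb6* were low, at 5.15 to 8.55 and 0.0562 to 0.281 FPKM. Of the 10 astrocyte genes listed, however, 9 had a mean of at least 1 FPKM. Among these, *Gfap* was at 482.2 to 559.9 FPKM and *Atp1b2* at 147.5 to 179.5 FPKM. *Gjb6* was named after its value was seen. Whether the preparation differed from its label was not tested, which limits what the stathmin, tubulin and cell cycle levels say of adult astrocytes. Of 9 genes of the cell cycle, all tested, 4 passed as higher and none as lower (none at an unadjusted p under 0.05 in limma), with a median of 0.16. Over all genes tested, 5.74% passed as higher and 5.18% as lower. *Cdk1*, the kinase gene that drives entry into mitosis, rose from 19.6 ± 1.21 to 26.8 ± 2.27 FPKM (log2 fold change 0.43, adjusted p = 0.0246 from limma), and *Birc5*, *Tyms* and *Ccnb1* rose with log2 fold changes of 0.26, 0.22 and 0.21. After quantile normalization, *Ccnb1* was at 0.20 (adjusted p = 0.0507 from limma) and the other 3 passed. After the correction for exonic length, *Cdk1* and *Tyms* passed, and *Birc5* and *Ccnb1* did not (0.21 and 0.19, limma adjusted p = 0.0573 and 0.0612). *Mki67*, by contrast, had 14.2 ± 1.35 FPKM after mock and 12.8 ± 1.28 FPKM in the quinpirole libraries, a change of -0.14 (limma adjusted p = 0.314). With 10061 bases it lay in the longest bin, and the correction for exonic length left it at -0.050 (limma adjusted p = 0.701). The summed level of the 9 genes, of which *Pcna* was the most abundant, was 211.6 to 213.1 FPKM after mock and 235.3 to 243.8 FPKM after quinpirole, and its part in the rise of *Stmn1* was not tested. Over the 4 lists, 14 genes passed in all. With single libraries left out, none passed without mock library 1, mock library 2, quinpirole library 1 or quinpirole library 2 (21 to 23 at an unadjusted p under 0.05 in limma), 2 passed without quinpirole library 3 and 7 without mock library 3. Over all genes tested, 6, 3, 11, 25, 214 and 1182 passed in these fits, in the same order.

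**Figure D5:**
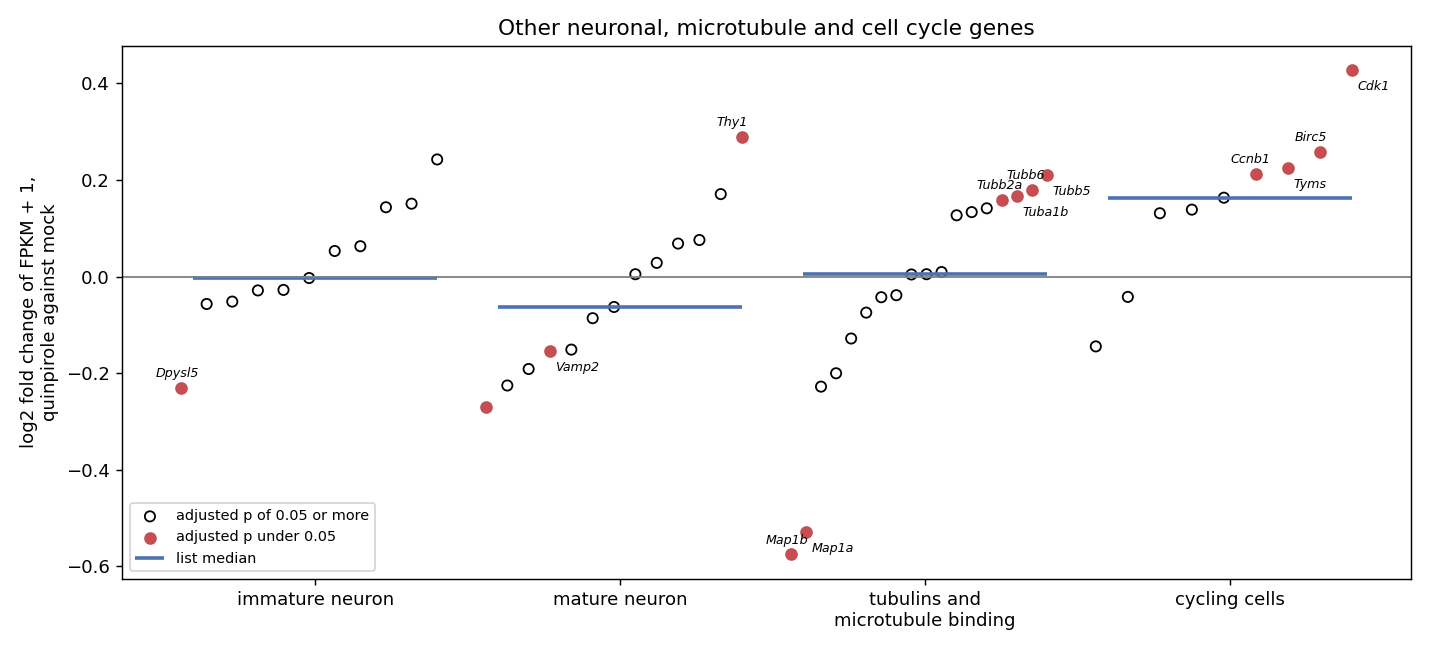
Log2 fold change of FPKM + 1 between quinpirole and mock for the tested genes of 4 lists, ordered within each list, with genes past an adjusted p of 0.05 from limma filled, those described in the text named, and list medians as blue lines. Only *Dpysl5* is filled among the immature neuron genes, and the cycling list has the highest median (0.16).

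Markers of the labelled cell type and of other cells were measured in the same libraries. Of 10 astrocyte genes, 9 had a mean of at least 1 FPKM, led by *Gfap* at 482.2 to 559.9 FPKM, while the connexin gene *Gjb6* was under the filter. Their summed level was 1196 to 1302 FPKM after mock and 1153 to 1192 FPKM after quinpirole, with *Slc1a2* (log2 fold change -0.42) and *Atp1b2*, the gene of the ACSA-2 antigen (-0.19), past the threshold as lower. After the correction for exonic length, *Atp1b2* passed and *Slc1a2*, at -0.27, did not (limma adjusted p = 0.0573). The 6 microglia genes summed to 280.7 to 290.0 FPKM and 290.3 to 298.9 FPKM. The 10 oligodendrocyte lineage genes summed to 471.7 to 482.6 FPKM and 494.6 to 514.8 FPKM, with *Olig1* the most abundant and past the threshold as higher (0.15), and with *Mog* and *Mobp* under 0.1 FPKM. The 5 endothelial genes summed to 52.3 to 54.0 FPKM and 51.1 to 53.4 FPKM, mostly from *Slco1a4*, with *Pecam1* under 0.1 FPKM and no gene past the limma threshold (1 at an unadjusted p under 0.05). The 5 ependymal genes summed to 145.2 to 164.0 FPKM and 144.5 to 154.4 FPKM, mostly from *Foxj1*, also with no gene past the limma threshold (1 at an unadjusted p under 0.05). After quantile normalization, *Olig1* was at 0.022 and did not pass (adjusted p = 0.760 from limma), nor did it after the length correction, at 0.056 (limma adjusted p = 0.389). The summed ranges of the groups did not overlap for the astrocyte genes, which were lower after quinpirole, or for the microglia and oligodendrocyte lineage genes, which were higher. The sum over all genes in the tables was itself higher, at 401769 to 413730 FPKM after mock and 425244 to 437164 FPKM after quinpirole, so these sums are not shares of the libraries. The part of these cells in the levels of the stathmin and neuronal genes was not tested.

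The genes with the profile most like that of *Stmn1* over the 6 libraries, by the Euclidean distance between z-scored log2(FPKM + 1) values, were *Mxra8* (distance 0.17), *Cldnd1* (0.292), *Ccdc90b* (0.292), *Gsr* (0.296) and *Mtrf1* (0.303). For *Stmn2* they were *Copz1* (0.172), *Krtcap2* (0.174), *Rpl39* (0.19), *Ssu72* (0.219) and *Cyb5a* (0.23). These are the nearest of 12255 genes over 6 libraries that share a group difference, and the distances carry no test.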

How the data were processed

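Poly(A) mRNA of ACSA-2+ cells was sequenced in paired-end reads on an Illumina HiSeq instrument. The authors trimmed adaptors, discarded reads of low quality, mapped with TopHat2 to GRCm38 (submitters' processing notes), kept reads with at most 1 mismatch and deposited FPKM values, 1 per gene and library. The program that computed FPKM, its version and its treatment of strand are not given in the sources used here. Of 17193 gene identifiers, 17090 were matched to a symbol. Depth was estimated from the steps of low values of genes with 1 transcript, since counts were not used here; between 57.4% and 66.7% of them lay within 0.1 of a whole fragment. Fragments behind a value were computed with the longest transcript, and such numbers cover counting error only. The floor for a value of 0 was 3 fragments.

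Genes with a mean of at least 1 FPKM were tested on log2(FPKM + 1), which understates changes of low genes, with limma 3.58.1 in R 4.3.3 (lmFit, eBayes with trend, two-sided). The fit was tested on simulated data. Positions, lengths and transcripts are those of GENCODE M21 on GRCm38. The exonic length of a gene joined all its transcripts, and the length correction subtracted a loess fit (span 0.3) of each library's deviation from the gene mean on log2 length. Shared words had 50 bases. Other settings were a pseudocount of 0.1, no filter, a minimum of 5 FPKM, median ratio scaling, robust eBayes and eBayes without trend, quantile normalization, a block for the replicate number, and the omission of each library.

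The members and the lists were chosen with earlier results of these data known. The text names the 10 members and, from each other list, up to 6 genes past the threshold and the most abundant gene, except for genes that are not reported here. *Gjb6*, *Mki67* and genes under 0.1 FPKM were named after their values were seen, as were *Stmn1* and *Stmn2* for the search of like profiles. That search was planned for *Dcx* and *Snap25*, but their values rest on an estimated 0 to 14 fragments, so their nearest genes are not given. Tables were made in Python 3.11.15 with pandas 2.3.3, numpy 2.4.6 and scipy 1.17.1, and figures in matplotlib 3.10.9.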

Additional observations from a re-analysis of the deposited data

How the results depend on the processing

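The directions of *Stmn1*, *Stmn2* and *Tubb3* were kept under all alternatives run. Against 1339 genes past the threshold, 2 of the 5 tested members and 14 genes of the 4 other neuronal, microtubule and cycling lists, the numbers were 633, 2 and 6 with no filter, 783, 2 and 8 with quantile normalization, 714, 1 and 8 with eBayes without trend, and 509, 2 and 8 with the transcript length correction. They were 375, 1 and 5 with the transcript length and GC correction, and 280, 0 and 3 with the longest transcript length correction, where 2 members had an unadjusted p under 0.05 in limma. Omission of single libraries gave 3 to 1182 genes, 0 to 2 members and 0 to 7 list genes. *Stmn2* was no longer past the threshold with eBayes without trend (0.22), the transcript length and GC correction (0.19) and the longest transcript length correction (0.21), nor *Stmn1* with the last (0.20).

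*Map2* turned to 0.083 after correction for transcript length and to 0.073 for length and GC. With the longest transcript length correction it kept its sign, at -0.0197. *Stmn3* turned to -0.11 after correction for transcript length, to -0.057 for length and GC, and to -0.10 with the longest transcript length correction. With single libraries omitted, the log2 fold change was 0.29 to 0.35 for *Stmn1*, 0.19 to 0.25 for *Stmn2*, 0.15 to 0.25 for *Tubb3*, -0.17 to -0.089 for *Map2* and -0.025 to 0.082 for *Stmn3*. The difference between immature and mature genes was 0.15 after correction for transcript length, and 0.31 to 0.41 with single libraries omitted, against 0.34. The cause of these changes was not tested.

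With the replicate block, 2 genes, 0 members and 0 list genes passed (3308, 3 and 23 at an unadjusted p under 0.05 in limma), with *Stmn1* at 0.33 (adjusted p = 0.0802) and *Stmn2* at 0.22 (adjusted p = 0.0902). The deviations of same-numbered libraries correlated at -0.103 to 0.026, and shared numbers were not read as pairs. At an estimated 0 to 19 fragments, changes of *Dcx*, *Rbfox3*, *Snap25* and *Stmn4* were not detectable.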
